A study of Mus musculus with 8 samples.

Results

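Lipolysis enzymes and lipid droplet proteins were examined in brown adipose tissue (BAT) of mice with cancer-associated cachexia. The group holds 10 genes, taken from the 56953 genes of the deposited count table by their symbols (Pnpla2, Lipe, Mgll, Abhd5, G0s2, Plin1, Plin2, Plin4, Plin5 and Cidec), because fat loss in cachexia runs through lipolysis. RNA was sequenced from BAT of 8 wild-type C57BL/6J mice, with 1 library per mouse. The 4 CAC mice received 3000000 Lewis lung carcinoma (LLC) cells under the skin of the right flank in 100 µL of PBS and were monitored for 21 days, and the 4 CTR mice received PBS alone. Mice were 8 to 10 weeks old at injection and either male or female, and the labels do not give the sex of each mouse. LLC is a transplantable lung tumour line of this strain, so every CAC mouse carried the same tumour line, at a site away from the BAT that was sampled.

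Adipocytes store triglyceride in droplets and release it by lipolysis in successive steps. ATGL, encoded by Pnpla2, removes the first fatty acid, hormone-sensitive lipase (Lipe) cleaves diacylglycerol, and monoglyceride lipase (Mgll) frees the last fatty acid and glycerol. ATGL is activated by CGI-58 (Abhd5) and inhibited by the G0S2 protein. Perilipins coat the droplet. Perilipin 1 (Plin1) holds CGI-58 at rest and releases it after adrenergic signalling through protein kinase A, while CIDEC moves lipid from smaller to larger droplets. In brown fat the fatty acids released fuel and activate UCP1, so lipolysis serves heat production there.

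None of the 10 genes passed the test between CAC and CTR. The largest difference was in Plin1, whose mean was 664 ± 15.4 CPM in CTR (SD, n = 4, where CPM are counts scaled to a common library size by TMM) and 549.5 ± 59.8 CPM in the CAC mice, which the fit put at a log2 fold change of -0.27 (SE 0.09, adjusted p = 0.192 in edgeR). Cidec, Plin2 and Plin5 had fitted log2 changes of 0.21, 0.20 and 0.20, and the lipases Pnpla2, Lipe and Mgll lay between -0.09 and 0.08. All 10 genes passed the filter on low counts, and 0 of 10 had an adjusted p below 0.05 in edgeR's quasi-likelihood test, against 92 of the 9876 genes tested, or 0.932% of them. The same count of members was 0 in DESeq2 and in limma-trend. With an unadjusted p below 0.05, 2 of the 10 (Plin1 and Cidec) were counted, against 1278 genes or 12.9% of those tested. Of the members, 7 had a positive and 3 a negative fitted log2 change, with a median of 0.07, and over all tested genes the median was 0.00. Where nothing passed the test, the 95% intervals given below, which are not adjusted for the number of genes, show the sizes that these mice leave possible.

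The libraries were shallow, at 2454493 to 4827956 counts in CTR and 1823167 to 3392538 in CAC, and a count of 0 leaves room for up to 3 counts, which come to 0.62 to 1.65 CPM. The members were well above that limit, with at least 95.5 counts in every library, and such limits cover counting error only. The 9 brown adipocyte markers, Ucp1 and Cidea among them, summed to 11653 to 13860.3 CPM in CTR and 11480.5 to 15021 CPM in CAC, and the white adipocyte list to 139 to 162 and 107 to 202 CPM, so that the groups overlapped in both. Of the brown markers 1 was called, Ppargc1a, which was higher. Ucp1 and Cidea made up most of that sum, and within it Cox7a1 (1099 to 1224 CPM in CTR, 936 to 1089 in CAC) and Cox8b (1024 to 1181 and 873 to 1006 CPM) were lower in every CAC library without being called. Over all tested genes, 3.4% did not overlap with CAC lower. The other brown markers had higher means in CAC with overlapping groups, among them Dio2 with means of 77.7 CPM in CTR and 127 CPM in CAC. In the white list, mean levels in CTR and CAC were 103 and 122 CPM for Retn and 4.46 and 9.77 CPM for Agt. They were 35.5 and 12.7 CPM for Nnat and 4.11 and 0.72 CPM for Lep, and none of the 3 tested was called. The 10 neutrophil markers, of which Ly6g, Cxcr2 and Camp had 0 counts in all CTR libraries, summed to 11.9 to 15.2 CPM in CTR and 173 to 442 CPM in CAC, with 3 of 4 tested called higher. S100a8 and S100a9 made up most of the sum in CAC, and the other 8 markers, a sum taken after seeing the data, came to 6.48 to 9.32 CPM in CTR and 18.5 to 37.8 CPM in CAC. The 10 macrophage markers summed to 204 to 231 and 287 to 397 CPM, with 2 of 7 tested called higher (C1qa and C1qb). The 10 skeletal muscle markers summed to 1161 to 2854 and 2566 to 4706 CPM, with 1 of 10 called higher, and the 5 erythroid markers to 6179.5 to 19266 and 14631 to 44312 CPM, with 0 of 5 called, and the sums overlapped between the groups in both lists. The endothelial list summed to 255 to 329.7 and 208 to 295 CPM and the fibroblast list to 428 to 576 and 379 to 557 CPM, also with overlap and with 0 of 5 called in each.

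Because Plin1 and the members Plin2 and Cidec lay on opposite sides of no change, the sequences upstream of these 3 genes are shown. They are from RefSeq on GRCm38.p6, written 5′ to 3′ on the strand of the gene, and end before the first base that GENCODE M21 places in an exon of the gene. The region of Plin1 is chr7:79732904-79733026, that of Cidec, the first of 2 windows listed, is chr6:113435761-113436010, and that of Plin2 is chr4:86670061-86670309, all on the minus strand. Capitals mark a match to AGGTCA, the half-site bound by nuclear receptors such as the PPARs, on either strand.
Plin1: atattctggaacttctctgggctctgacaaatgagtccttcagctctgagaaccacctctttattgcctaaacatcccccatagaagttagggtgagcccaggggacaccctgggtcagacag
Cidec: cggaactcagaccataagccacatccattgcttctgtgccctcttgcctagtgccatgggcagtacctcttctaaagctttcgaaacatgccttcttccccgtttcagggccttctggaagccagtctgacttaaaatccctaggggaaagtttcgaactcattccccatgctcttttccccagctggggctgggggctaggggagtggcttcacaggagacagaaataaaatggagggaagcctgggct
Plin2: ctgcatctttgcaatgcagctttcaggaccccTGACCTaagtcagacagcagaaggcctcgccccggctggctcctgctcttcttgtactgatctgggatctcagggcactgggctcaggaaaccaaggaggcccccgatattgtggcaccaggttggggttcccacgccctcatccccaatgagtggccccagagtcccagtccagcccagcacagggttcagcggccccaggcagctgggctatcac
The full 250 bases before the start were searched for all 10 members, which matched by symbol and have 14 windows. AGGTCA or its reverse complement was present for Plin2, where it begins 218 bases before the start, and for Abhd5 and Plin5, and 14.0% of the 32851 windows of the same length hold it. TGACG, the half-site of the cAMP response element, was present on either strand for Abhd5 and G0s2 and in 17.8% of all windows, and the full element TGACGTCA, whose matches contain TGACG, was found for no member and in 1.55% of all windows. The absence of a match says only that these letters are not in the window.

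To compare the genes with each other, the mean CTR level was divided by the exon length in GENCODE M21, giving CPM per kb. Pnpla2 was the most abundant at 689 CPM per kb. Mgll (300.02), Plin2 (288) and Cidec (268) followed, and neighbours in this order overlapped over the 4 CTR libraries. Lipe (209.6), Plin1 (143), Plin5 (88.9), G0s2 (78.7) and Plin4 (61.2) came next, among which Plin5 overlapped G0s2 and G0s2 overlapped Plin4. Abhd5 was lowest at 9.40 CPM per kb, below every CTR library of Plin4. On this scale the co-activator and the inhibitor of ATGL were both well below ATGL itself. The sources used here do not say whether reads spread along the whole transcript, and the order below Pnpla2 depends on the division by length. On the CPM scale, which takes no account of length, Lipe (mean 1234 CPM in CTR) and Plin1 (664 CPM) were above Cidec (497 CPM). On that scale Plin4 (309 to 407 CPM) lay above G0s2 (39.2 to 88.0 CPM), and Abhd5 (51.5 to 61.0 CPM) overlapped G0s2.

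**Figure D1:**
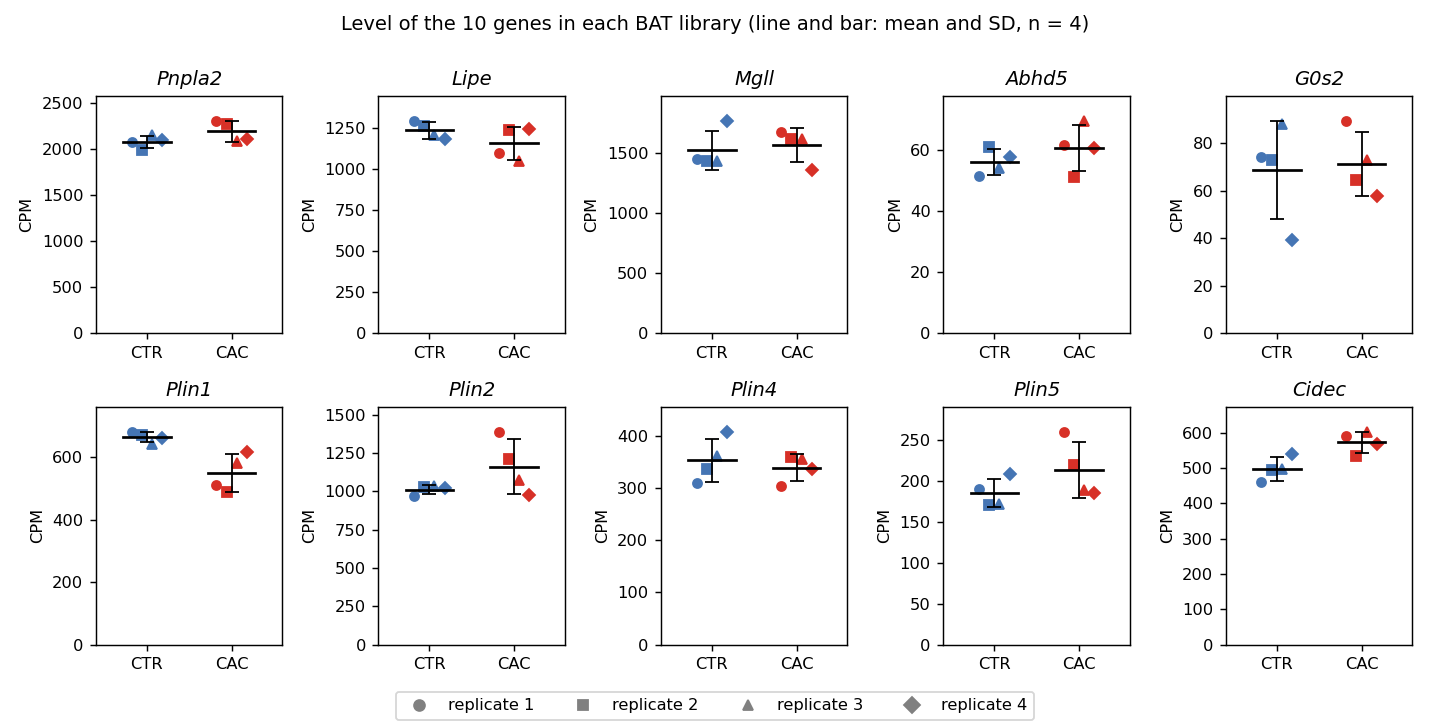
Level of each of the 10 genes in CPM, on axes that start at 0, with 1 point per library, the mean as a line and the SD as a bar (n = 4 per group). The CAC points of Plin1 all lie below the CTR points, and the groups overlap for the other 9 genes.

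Among the lipases, Pnpla2 (ENSMUSG00000025509.16, chromosome 7, 141455198 to 141460743 of GRCm38) was at 2074, 1993, 2156 and 2097 CPM in CTR replicates 1 to 4 and at 2305, 2277, 2085 and 2106 CPM in CAC replicates 1 to 4. CAC replicates 1 and 2 were above every CTR library, and the other two CAC libraries lay within the CTR range. The fitted log2 change was 0.08 (95% interval -0.10 to 0.25, adjusted p = 0.766 in edgeR). Lipe (ENSMUSG00000003123.16, chromosome 7, 25379527 to 25398710) was at 1289.7, 1260.3, 1203 and 1181 CPM in CTR and at 1094, 1238, 1046 and 1242 CPM in CAC. Its CAC replicates 1 and 3 were below all CTR libraries and its other CAC libraries were not. The log2 change was -0.09 (95% interval -0.28 to 0.09, adjusted p = 0.718 in edgeR), and -0.05 without CAC replicate 3. Mgll (ENSMUSG00000033174.18, chromosome 6, 88724412 to 88828360) was at 1454, 1435, 1436 and 1768 CPM in CTR and at 1673, 1618, 1615 and 1359.6 CPM in CAC. CTR replicate 4 was the highest of all 8 libraries and CAC replicate 4 the lowest, and the log2 change was 0.04 (95% interval -0.16 to 0.24, adjusted p = 0.915 in edgeR). It was 0.13 without CTR replicate 4, 0.11 without CAC replicate 4, and between 0.01 and 0.02 without any 1 of the other 6 libraries. As folds, these intervals ran from 0.932 to 1.19 for Pnpla2, from 0.822 to 1.07 for Lipe and from 0.893 to 1.18 for Mgll. Exons of Lipe and Mgll share 918 and 167 bases with antisense genes, and whether reads were counted by strand is not given in the sources used here, so reads of the partners cannot be told apart there.

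Of the regulators of ATGL, Abhd5 (ENSMUSG00000032540.17, chromosome 9, 122351608 to 122381524) was at 51.5, 61.0, 53.9 and 57.5 CPM in CTR and at 61.6, 51.1, 69.4 and 60.7 CPM in CAC. The groups overlapped, with the lowest and the highest library both in CAC. The log2 change was 0.12 (95% interval -0.13 to 0.37, adjusted p = 0.733 in edgeR), and it was 0.04 without CAC replicate 3 and 0.19 without CAC replicate 2. An antisense gene lies opposite 950 exonic bases of Abhd5. G0s2 (ENSMUSG00000009633.4, chromosome 1, 193272161 to 193273217) was at 74.1, 73.0, 88.0 and 39.2 CPM in CTR and at 89.2, 64.3, 73.0 and 57.9 CPM in CAC. It was the most variable member in CTR, where its coefficient of variation was 30.2%, and its interval was the widest of the 10, from -0.47 to 0.59 around a log2 change of 0.06 (adjusted p = 0.95 in edgeR). Without CTR replicate 4 the log2 change of G0s2 was -0.13. G0s2 is also expressed by neutrophils, whose summed markers were higher in every CAC library as given above, and their part in its level was not tested.

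The droplet coat proteins gave the widest range of fitted changes among the members. Plin1 (ENSMUSG00000030546.15, chromosome 7, 79720218 to 79732903) was at 680.1, 671, 644 and 662 CPM in CTR and at 510.3, 489, 582 and 617 CPM in CAC. Every CAC library lay below every CTR library, and it was the only one of the 10 members whose groups did not overlap. Over all tested genes, 3.4% did not overlap with CAC lower and 3.64% with CAC higher, against 1 of 10 and 0 of 10 members. The fitted fold change of Plin1 was 0.828 (95% interval 0.723 to 0.948), and its unadjusted p of 0.00841 gave an adjusted p of 0.192 in edgeR's test. Leaving out each library in turn gave log2 changes between -0.33 and -0.22, with adjusted p between 0.169 and 0.399. In bulk tissue, fewer adipocytes and less Plin1 RNA per adipocyte cannot be told apart, and the summed adipocyte markers were 9805 to 12124 CPM in CTR and 10676 to 14146 CPM in CAC. The markers within that sum did not go one way, since mean levels in CTR and CAC were 3952 and 5622 CPM for Cfd, 3784 and 3199 CPM for Fabp4, 41.2 and 25.3 CPM for Pparg and 891 and 919 CPM for Adipoq, and none of the 6 was called.

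Plin2 (ENSMUSG00000028494.13, chromosome 4, 86648386 to 86670060), which coats droplets in most cell types, was at 966, 1024, 1032 and 1019 CPM in CTR and at 1384, 1209, 1072 and 977 CPM in CAC. CAC replicates 1 to 3 were above all CTR libraries, and replicate 4 was within their range. Its SD was 30.2 CPM in CTR and 177 CPM in CAC, and the log2 change was 0.20 (95% interval -0.01 to 0.41, adjusted p = 0.418 in edgeR). Without CAC replicate 1 it was 0.11. Plin2 is also made by macrophages, and the summed macrophage markers were higher in every CAC library. Their part was not tested.

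Plin5 (ENSMUSG00000011305.12, chromosome 17, 56111601 to 56117596), the perilipin of oxidative tissues that tethers droplets to mitochondria, was at 190.0, 172, 172 and 209 CPM in CTR and at 260.0, 220.2, 189 and 186 CPM in CAC. CAC replicates 1 and 2 were again above every CTR library and the other two were inside the CTR range. The log2 change was 0.20 (95% interval -0.04 to 0.44, adjusted p = 0.492 in edgeR), and 0.10 without CAC replicate 1. Its neighbour Plin4 (ENSMUSG00000002831.15, chromosome 17, 56100591 to 56109803), a coat protein of nascent droplets that lies 1797 bases away on the same strand, was at 309, 337, 360.2 and 407 CPM in CTR and at 303, 358, 356 and 335 CPM in CAC. The ranges overlapped in part, with CTR replicates 3 and 4 above every CAC library and CAC replicate 1 below every CTR library. The log2 change of Plin4 was -0.06 (95% interval -0.27 to 0.15, adjusted p = 0.857 in edgeR). It was 0.02 without CTR replicate 4 and -0.12 without CTR replicate 1. Both genes are also expressed in skeletal muscle, whose summed markers lay above the CTR range in 3 of 4 CAC libraries, and their part was not tested. Plin4 shares 17 exonic bases with Hdgfl2 on the other strand.

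Cidec (ENSMUSG00000030278.12, chromosome 6, 113424634 to 113435760), the droplet fusion protein also called FSP27, was at 459, 494, 495 and 539 CPM in CTR and at 591, 534, 601 and 566 CPM in CAC. CAC replicates 1, 3 and 4 lay above all CTR libraries, and replicate 2 lay just below CTR replicate 4. The log2 change was 0.21 (95% interval 0.02 to 0.39, unadjusted p = 0.0326, adjusted p = 0.326 in edgeR). With scaling by library size alone, all 4 CAC libraries of Cidec were above the CTR libraries, so that 2 members did not overlap, 1 lower and 1 higher in CAC, against 3.16% and 3.34% of all tested genes under that scaling. Unlike Plin5, which had whole counts in each of the 8 libraries, Cidec had fractions of reads in 6 of them.

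**Figure D2:**
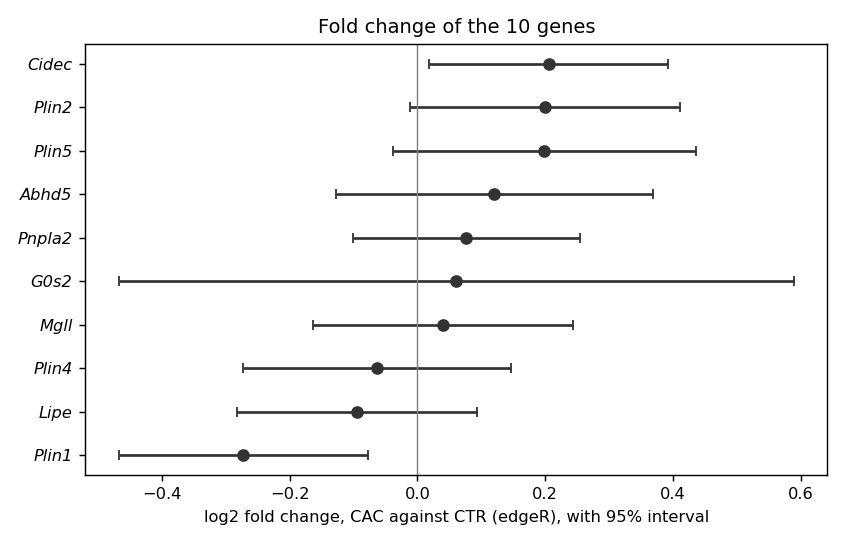
Fitted log2 fold change of each of the 10 genes, CAC against CTR, with its 95% interval. Only the intervals of Plin1 (-0.47 to -0.08) and Cidec (0.02 to 0.39) leave out 0 before adjustment, and none of the 10 adjusted p was below 0.05.

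The deviations of each library from the CTR mean showed that mice differed from each other in both groups. In CTR replicate 4 the log2 deviations of the members ranged from -0.74 for G0s2 to 0.22 for Mgll. In CAC replicate 1 the members ranged from -0.38 on the log2 scale for Plin1 to 0.49 for Plin5, and in CAC replicate 2 from -0.44 for Plin1 to 0.26 for Plin2. In CAC replicate 3 they ranged from -0.24 for Lipe to 0.31 for Abhd5, and in CAC replicate 4 from -0.18 for G0s2 to 0.19 for Cidec. Plin1 was thus the lowest member relative to CTR in CAC replicates 1 and 2 and not in CAC replicates 3 and 4. CAC replicates 1 and 2 were also the smallest libraries of the 8. After all libraries were thinned to the total of the smallest, an alternative chosen after seeing the data, the log2 changes of Plin1, Plin2 and Cidec were -0.32, 0.19 and 0.20.

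**Figure D3:**
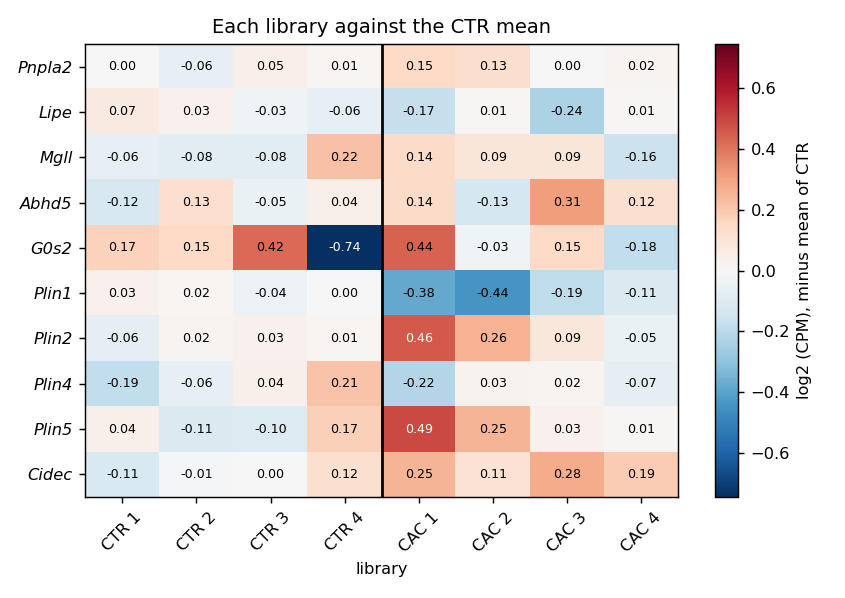
Difference of each library's log2 CPM from the mean log2 CPM of the CTR libraries, for the 10 genes (rows) and 8 libraries (columns). CAC replicates 1 and 2 show the lowest Plin1 (-0.38 and -0.44) and the highest Plin2 (0.46 and 0.26), while CAC replicate 4 reaches at most 0.19 in either direction.

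Because the activity of ATGL depends on its partners, ratios of counts between members were compared within each library, which needs no scaling between libraries. A total of 8 ratios were tested with exact two-sided permutation tests over the 70 assignments of 4 against 4 mice, for which 0.0286 is the smallest p. Adjustment over the 8 ratios would need 5 of them at that smallest p to pass 0.05. None passed it. The ratio of Cidec to Plin1 was, on the log2 scale, -0.57, -0.44, -0.38 and -0.30 in CTR and 0.21, 0.13, 0.05 and -0.12 in CAC. The groups did not overlap, with a difference of 0.49 (exact permutation p = 0.0286, adjusted p = 0.114). The ratio of Abhd5 to Plin1, the co-activator and the coat protein that holds it, was -3.72, -3.46, -3.57 and -3.52 in CTR and -3.04, -3.25, -3.06 and -3.34 in CAC, again without overlap (difference 0.39, exact permutation p = 0.0286, adjusted p = 0.114). Plin2 to Plin1 and Plin5 to Plin1 differed by 0.47 each, with 3 of 4 CAC libraries above all CTR libraries (exact permutation p = 0.0571 and adjusted p = 0.114 for both). These 4 ratios share Plin1 as denominator and are not independent of each other.

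Ratios among the lipases and the regulators of ATGL differed less than those with Plin1. G0s2 to Pnpla2 differed by 0.02 (exact permutation p = 0.971) and Abhd5 to Pnpla2 by 0.04 (p = 0.8), with overlapping groups in both. With 1 library left out, the difference for G0s2 to Pnpla2 ranged from -0.23 to 0.14 and that for Abhd5 to Pnpla2 from -0.05 to 0.13. Lipe to Pnpla2 was -0.68, -0.66, -0.84 and -0.83 in CTR and -1.07, -0.88, -0.995 and -0.76 in CAC, so that 3 of 4 CAC libraries were below all CTR libraries (difference -0.17, exact permutation p = 0.114, adjusted p = 0.183). Mgll to Lipe differed by 0.14 (exact permutation p = 0.4), and by 0.08 to 0.24 with 1 library left out. Without CAC replicate 4, the ratios of Lipe to Pnpla2 and of the other 4 genes to Plin1 each reached the smallest exact permutation p of 0.0286, and all 5 then had an adjusted p of 0.0457. That library was the one CAC library within the CTR range for Lipe to Pnpla2, Plin2 to Plin1 (0.66) and Plin5 to Plin1 (-1.73). With any other library left out, no ratio passed, and the lowest adjusted p of the permutation tests was 0.114.

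**Figure D4:**
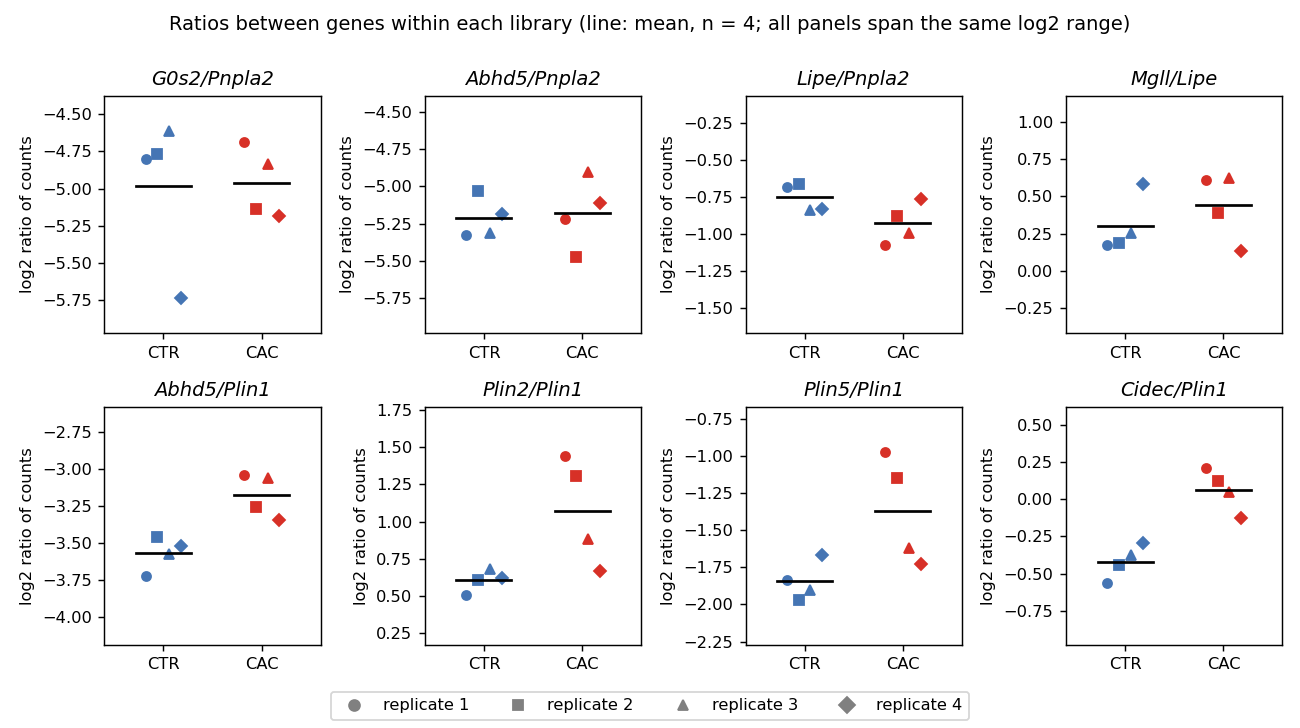
The 8 log2 ratios of counts, 1 point per library with the group mean as a line (n = 4 per group), on panels that span the same log2 range. The CAC points of Cidec/Plin1 and Abhd5/Plin1 lie above all CTR points, by a mean difference of 0.49 and 0.39, and the groups overlap in the other 6 panels.

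The genes around the members were read from 5 further lists, which together held 64 genes, of which 56 were tested and 2 were called, against the 0.932% of all tested genes. Of the list of adrenergic receptors and the cyclic nucleotide arm that switches lipolysis on or off, 17 of 21 genes were tested, 8 with a positive and 9 with a negative log2 change, and 1 was called. That gene was Ptger3, the EP3 receptor of prostaglandin E that inhibits cAMP formation. It was at 51.5, 53.0, 41.9 and 38.4 CPM in CTR and at 31.4, 34.6, 22.9 and 22.7 CPM in CAC, without overlap, and fell by 0.76 on the log2 scale (95% interval -1.09 to -0.43, adjusted p = 0.019 in edgeR). The call was lost in 4 of the 8 fits that left out 1 library, where the adjusted p was 0.0738 without CTR replicate 2, 0.0752 without CAC replicate 4, 0.08 without CTR replicate 1 and 0.088 without CAC replicate 3. Adrb1, a beta-adrenergic receptor, averaged 67.6 ± 17.3 CPM in CTR against 46.2 ± 10.0 CPM in CAC (SD, n = 4) with a log2 change of -0.55 (adjusted p = 0.277 in edgeR), and was called without CTR replicate 4 (adjusted p = 0.0282), with the replicate number as a block (0.0459) and without a filter on low counts (0.00287). Adrb3, the main beta receptor of rodent adipocytes, was named after its values were seen, with 134.5 ± 20.3 and 148 ± 30.1 CPM and a log2 change of 0.14 (adjusted p = 0.747 in edgeR).

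Of 10 transcription factors that act on these genes, all were tested, 5 with a positive and 5 with a negative log2 change, and 1 was called. Ppargc1a, the co-activator of mitochondrial and thermogenic genes, was at 43.9, 44.7, 52.3 and 66.4 CPM in CTR and at 106, 65.9, 91.1 and 82.3 CPM in CAC. It rose by 0.73 on the log2 scale (95% interval 0.41 to 1.05, adjusted p = 0.0201 in edgeR), although CAC replicate 2 was just below CTR replicate 4, and the call was lost without CTR replicate 1, CTR replicate 2 or CAC replicate 3 (adjusted p of 0.0877, 0.0751 and 0.0875). Foxo1, a factor known to drive Pnpla2 transcription, averaged 75.0 ± 9.45 CPM in CTR against 101 ± 15.2 CPM in CAC (SD, n = 4) with a log2 change of 0.43 (adjusted p = 0.112 in edgeR).

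In the other three lists no gene passed the test. Among 12 tested of 16 genes of droplet biogenesis and other droplet proteins, 10 had a positive log2 change, with a median of 0.13. The smallest p belonged to Bscl2, which encodes seipin (log2 change 0.20, adjusted p = 0.522 in edgeR, between 0.10 without CAC replicate 1 and 0.32 without CAC replicate 4), and Pcyt1a, an enzyme of phosphatidylcholine synthesis (0.20, adjusted p = 0.563). Among the 10 other lipases, Ces1d, a carboxylesterase that hydrolyses triglyceride, was at 123, 115, 82.6 and 93.3 CPM in CTR and at 53.0, 64.9, 79.7 and 90.3 CPM in CAC, a log2 change of -0.51 (adjusted p = 0.148 in edgeR, and 0.00243 without a filter on low counts), and Ddhd2 was at 0.20 (adjusted p = 0.4). Of the 7 genes for products and their carriers, Fabp4, the fatty acid carrier of adipocytes, was at 3946, 3966, 3323 and 3901 CPM in CTR and at 2634, 2699, 3666 and 3796 CPM in CAC. Its 2 low libraries were CAC replicates 1 and 2, which also had the lowest Plin1, and its log2 change was -0.24 (adjusted p = 0.387 in edgeR), and -0.15 without CAC replicate 1. Glycerol kinase (Gk) was at 0.33 (adjusted p = 0.399 in edgeR), and at 0.54 without CTR replicate 4 (adjusted p = 0.0853).

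**Figure D5:**
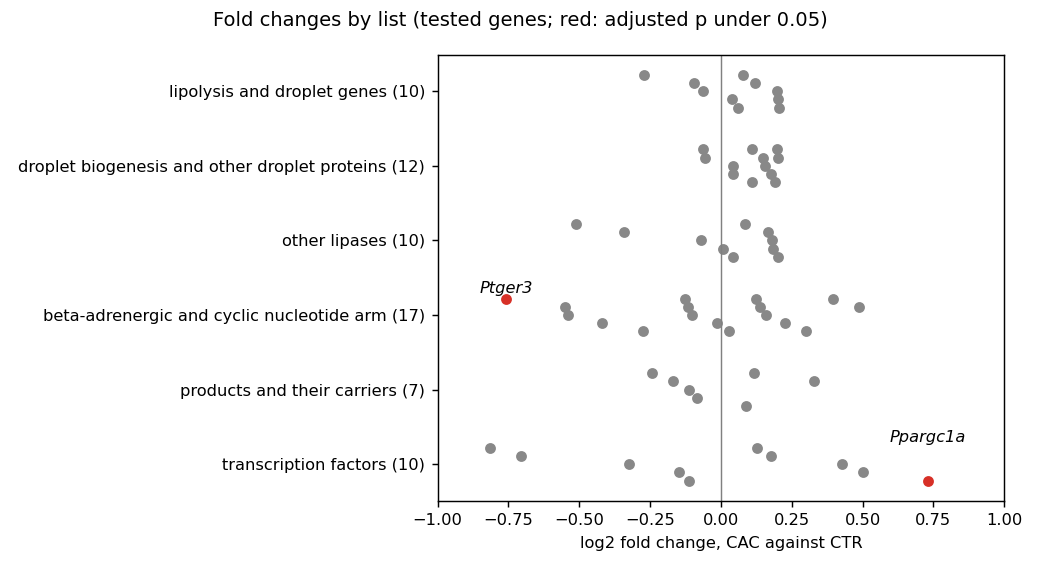
Fitted log2 fold change of every tested gene in the 10 lipolysis and droplet genes and in the 5 further lists, with the number tested in brackets and genes with an edgeR adjusted p below 0.05 in red. The 10 genes lie between -0.27 and 0.21, and the called genes are Ptger3 (-0.76) and Ppargc1a (0.73).

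The genes whose pattern over the 8 libraries was closest to that of Plin1, the member with the smallest p, were sought among 4128 genes with a mean of at least 20 CPM, by the root mean square difference of log2 CPM centred on each gene's mean. They were mt-Cytb (0.05), Sh3glb1 (0.05) and Fam221b (0.05), where the median over all candidates was 0.25. Since they were chosen for this likeness, their lower mean level in CAC follows from the choice, at 30939 against 38157 CPM for mt-Cytb, 273 against 327 CPM for Sh3glb1 and 93.8 against 109 CPM for Fam221b, and none had an edgeR adjusted p below 0.05.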

How the data were processed

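Total RNA from BAT was made into libraries by a digital mRNA-seq service and sequenced as single-end reads. The authors checked the reads with FastQC 0.11.9, aligned them to mm10 with HISAT2 2.2.1 and counted them on genes with featureCounts and its multi-mapping option, per the paper's methods and the submitters' processing notes. The deposited table holds expected counts per gene, with fractions of reads and no normalization. Another file, with 24792 genes, gives a signal that the authors made by cutting off decimals and dividing each library by a size factor, and 1 alternative used it.

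Expected counts were rounded and tested with edgeR 4.0.16 in R 4.3.3 (filterByExpr, TMM, robust quasi-likelihood fit of group alone, Benjamini-Hochberg adjustment over 9876 genes, threshold 0.05). Ratios used counts plus 0.5. The test was checked on simulated data. The range of library depth in each group is given at the start, and p-values measure the spread between mice, 1 library each. The members, gene lists and tests were chosen with earlier results of these data known. The named genes are all members, every called gene of each further list and its 2 lowest p values, and the 3 genes most like the member with the smallest p. Adrb3 and single marker genes were named after their values were seen. Coordinates are from GENCODE M21 on GRCm38, matched by Ensembl ID without version (91.4% of IDs). Alternatives were DESeq2 1.42.0, other scalings and filters, decimals cut off, blocking by replicate number, limma-trend (3.58.1) on the log2 of the deposited signal plus 1, other pseudocounts and each library left out, and, chosen after seeing the data, thinning to equal depth and the further lists under the settings not planned for them. Python 3.11.15 with numpy 2.4.6, pandas 2.3.3 and matplotlib 3.10.9 made the tables and figures. Protein sequences were not used here.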

Additional observations from a re-analysis of the deposited data

Results flagged for a closer look

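In CTR replicate 4, Mgll was at 1768 CPM while the other 3 CTR libraries lay between 1435 and 1454 CPM, a gap of 0.944 of the range of that group. The same library had the lowest log2 ratio of G0s2 to Pnpla2, at -5.74 against -4.80 to -4.61 in the others. Both were flagged by Dixon's test at the 95% level, applied to 36 groups of 4 values, of which chance alone flags about 1 in 20. The 2 groups flagged are close to the 1.8 expected by chance.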

How the results depend on the processing

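No setting gave any of the 10 members an adjusted p below 0.05, and their count of calls was 0 under all 17 alternatives. Over these, the adjusted p of Plin1 ranged from 0.121 to 0.399, always with a lower level in CAC, and that of Cidec from 0.256 to 0.613, always with a higher one. With each library left out, the log2 fold change of G0s2 ranged from -0.13, without CTR replicate 4, to 0.20, and was -0.05 without CAC replicate 1, and that of Plin4 ranged from -0.12 to 0.0203, without CTR replicate 4. With scaling by library size, 2 members (Plin1 lower, Cidec higher) did not overlap between groups in place of 1, against 3.16% of all tested genes lower and 3.34% higher.

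The labels do not say whether the same replicate numbers mark paired mice. The deviations of same-numbered libraries from their group means had correlations between -0.02 and 0.04. Such low values show no shared deviation, but they cannot show that the mice were unpaired. With the replicate block, 140 genes were called in place of 92, Plin1 was at -0.28 (adjusted p = 0.241), the count of members called was 0, and the cyclic nucleotide list had 2 calls, Ptger3 and Adrb1, in place of 1. Leaving out each library gave 0 to 2 calls in that list and 0 to 3 among the transcription factors. Without a filter on low counts, 351 of 23730 genes were called, among them 3 of the cyclic nucleotide list, 4 transcription factors and 1 other lipase (Ces1d).

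With each library left out, the difference in log2 ratio ranged from -0.23 to 0.14 for G0s2 to Pnpla2, -0.0543 to 0.13 for Abhd5 to Pnpla2, -0.23 to -0.12 for Lipe to Pnpla2, 0.08 to 0.24 for Mgll to Lipe, 0.34 to 0.45 for Abhd5 to Plin1, 0.35 to 0.60 for Plin2 to Plin1, 0.34 to 0.59 for Plin5 to Plin1 and 0.44 to 0.55 for Cidec to Plin1. The cause of these changes was not tested. Pseudocounts of 0.1 and 2 turned no ratio and changed no call. G0s2 and Abhd5 had the lowest counts of the members, at most 274 in a library. After thinning to equal depth their log2 changes were 0.02 and 0.08, in place of 0.06 and 0.12, and 0 members were called. Beyond this thinning, how far depth limits each member was not tested.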
